A study of Papio anubis with 8 samples.

Results

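Kelch-like protein 1 (KLHL1) is represented in the deposited gene table by 2 rows on chromosome 15, LOC101015833 and LOC101027015, among 37053 rows in all. They were chosen by their symbols and by what their counts had already shown in these libraries, so their levels are given below as a description and were not tested. Hippocampal RNA was taken from olive baboon fetuses (Papio anubis) at 0.9 of term, whose mothers differed in adiposity and leptin level according to the design text, and 8 libraries were sequenced. No label gives the mother's group, the sex of the fetus or whether each library came from a separate fetus. The libraries are therefore named by the first part of their titles (AMB3 to AMB10), and no groups were compared. The rest of the title has another form for AMB3 than for the other libraries, and the labels do not say what it means. No treatment or genotype is recorded that separates the libraries.

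KLHL1 belongs to the BTB-kelch family. In these proteins a BTB domain allows pairing and, in many members, binding to the ubiquitin ligase scaffold cullin 3, while the kelch repeats form a propeller that holds a partner protein. Studies in rodents describe KLHL1 as a neuronal, actin-binding protein of the cytoplasm that modulates voltage-gated calcium channels of the P/Q and T types. In human a single gene of this name is annotated.

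In the baboon table no row carries the symbol KLHL1 itself. Both rows are described as kelch-like protein 1, no other row has that description, and the alias KLHL1 stands beside LOC101027015 alone. LOC101015833 (gene ID 101015833) occupies positions 47904697 to 48040961, a span of 136.3 kb, and LOC101027015 (gene ID 101027015) positions 48177309 to 48374112, a span of 196.8 kb. These coordinates are those of the file and equal those of the RefSeq table of Panubis1.0, in which each locus has 1 transcript. Both are protein-coding and lie on the minus strand, so LOC101027015 is the upstream and LOC101015833 the downstream of the pair. A gap of 136.3 kb separates them, no row starts within it, and together they span 469.4 kb. The table cannot tell whether these are pieces of a single gene or separate copies. No transcript length is given, so the levels of the loci were not compared with each other per length.

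**Figure D1:**
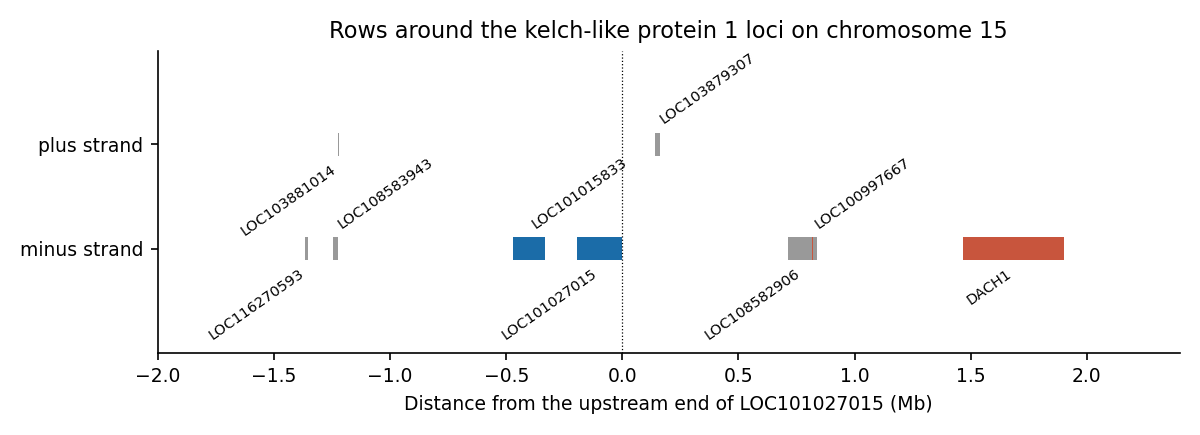
Rows around the loci, drawn by strand against the distance in Mb from the upstream end of LOC101027015; bars are annotated spans, blue for the kelch-like protein 1 loci, grey for the 5 other rows whose lowest coordinate lies within 1 Mb of the lowest coordinate of either locus, and red for the nearest rows above with a mean count of at least 10. These are LOC100997667, a thin bar inside LOC108582906 at 0.816 Mb, and DACH1 at 1.47 Mb.

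Counts over both loci rested on libraries of 40404878 to 71648654 counts. The unit of level is CPM (counts per 1000000 counts of the library, with corrected library sizes), and each interval is a 95% Poisson interval that covers counting error only. The downstream locus LOC101015833 had 6064 counts in AMB7, or 84.8 CPM (82.7 to 87.0). It stood at 65.7 CPM in AMB5, 60.7 in AMB9, 42.4 in AMB4 and 37.1 in AMB6. The remaining libraries were far lower, with 6.35 CPM in AMB3 from 258 counts, 2.46 in AMB10 from 176 counts and 1.03 in AMB8 from 69 counts (0.801 to 1.30). No intervals of libraries next to each other in this order overlapped. The highest library exceeded the lowest 82.4-fold in CPM, a range of 6.32 in log2 CPM (prior count 2).

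The upstream locus LOC101027015 gave nearly the same order. It stood at 27.6 CPM in AMB5 (26.1 to 29.2, 1199 counts) and at 27.3 in AMB7 (26.1 to 28.6, 1954 counts), which overlap. AMB9 with 20.3 CPM and AMB4 with 18.9 CPM also had overlapping intervals, and AMB6 followed with 11.7 CPM. AMB3 had 1.72 CPM from 70 counts, AMB10 0.963 from 69 counts and AMB8 0.239 from 16 counts (0.137 to 0.388). The log2 range was 6.65, and the level of the highest library was 116 times that of the lowest. The low end of this locus therefore rests on few counts.

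All 8 values of LOC101027015 and 5 of 8 of LOC101015833 were fractional (tolerance 0.001), so the counting may have divided some reads among rows. The sum of the loci does not depend on any division between them. It ran from 1.27 CPM in AMB8 (1.01 to 1.57, 85 counts), 3.42 in AMB10 (245 counts) and 8.07 in AMB3 (328 counts) up to 48.8 in AMB6, 61.3 in AMB4, 81.0 in AMB9, 93.3 in AMB5 and 112 in AMB7 (110 to 115, 8018 counts). These levels spread over a log2 range of 6.43. The widest step between adjacent libraries lay between AMB3 and AMB6, where the levels differed 6.04-fold, or 2.59 in log2 CPM. Levels also differed on either side of that step: AMB3 exceeded AMB8 by 6.36-fold, and AMB7 exceeded AMB6 by 2.30-fold.

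**Figure D2:**
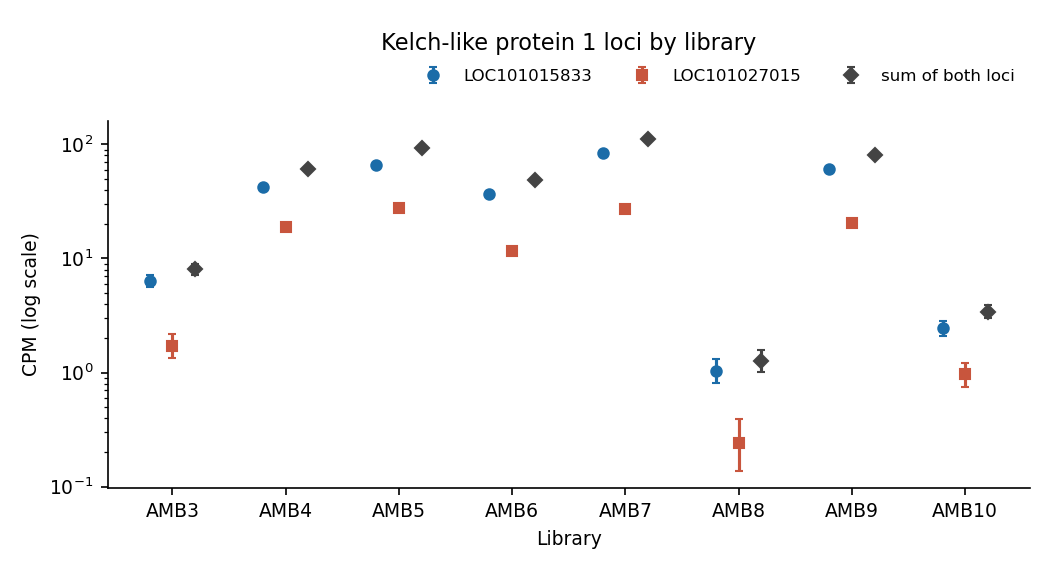
CPM of each locus and of their sum in the 8 libraries, on a log axis; points are libraries and bars 95% Poisson intervals, some smaller than the point. Both loci are lowest in AMB8, AMB10 and AMB3, and the sum runs from 1.27 CPM in AMB8 to 112 in AMB7.

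The deposited normalized values, which are on a log2 scale, gave the same picture. For LOC101015833 they were 5.11 in AMB7, 4.75 in AMB5, 4.62 in AMB9, 4.10 in AMB4 and 3.91 in AMB6, against 1.37 in AMB3, 0 in AMB10 and -1.27 in AMB8. For LOC101027015 they lay between 3.59 and 4.85 in the higher libraries and were 0.83, 0 and -2.08 in AMB3, AMB10 and AMB8. For each of the 15582 genes that exceeded 20 counts throughout, the deposited values had a median of 0 over AMB3, AMB8 and AMB10 (tolerance 0.001). The 3 lowest libraries of the loci are thus the ones on which the authors' values are centred, and no label says why these were used.

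Both loci varied far more than most genes. Of 18994 genes with a mean count of at least 10, 16.0% spanned at least 2 in log2 CPM. A range at least as large as that of LOC101015833 was found in 104, a number that includes the loci themselves. AMB3, AMB8 and AMB10 were the 3 lowest libraries in 9.71% of these genes and the 3 highest in 9.42%. The loci were chosen with these values known, so nothing is read from their place among all genes. Both passed the minimum mean count and also a stricter minimum level in every library, equal to 10 counts at the median library size.

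The ratio of the loci changed much less than their level. LOC101015833 held between 69.2% and 81.2% of the summed count, with a median of 75.3%. The share was 69.2% in AMB4 (exact binomial 95% interval 67.7 to 70.6) and 70.4% in AMB5 (69.0 to 71.8). It was higher in AMB9 with 74.9% (73.4 to 76.4), AMB7 with 75.6% (74.7 to 76.6) and AMB6 with 76.0% (74.4 to 77.7), and these intervals do not overlap those of AMB4 and AMB5. The low libraries had wide intervals, with 71.8% in AMB10 (65.8 to 77.4), 78.7% in AMB3 (73.8 to 83.0) and 81.2% in AMB8 (71.2 to 88.8). Intervals were separate in 9 of the 28 pairs of libraries. Across the 8 libraries the log2 CPM of the loci had a Pearson r of 0.995 and a Spearman rho of 0.976, given as a description of values that share libraries, depth and possibly reads.

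**Figure D3:**
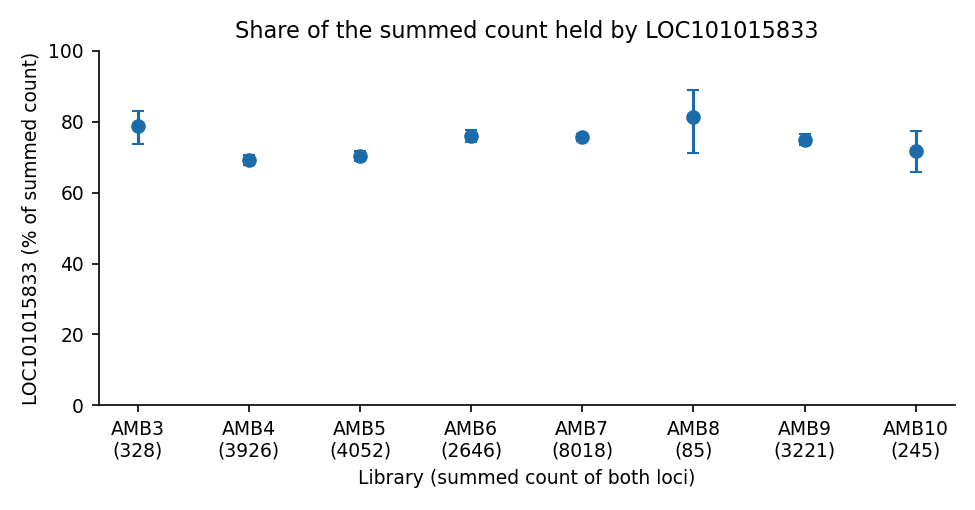
Share of the summed count of both loci that LOC101015833 held in each library, in percent, with exact binomial 95% intervals; the summed count stands under each library name. The share stays between 69.2% and 81.2% while the summed count runs from 85 to 8018.

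Few counts fell on the rows nearest to the loci. Neighbours were taken as rows whose lowest coordinate lies within 1 Mb of the lowest coordinate of either locus. Of these 5 rows, 4 had no count in any library, and a count of 0 allows a level of up to 0.0754 CPM (3 counts) in the shallowest. The fifth, the noncoding LOC103879307, had 2 counts in AMB9 and none elsewhere. It lies above the upstream locus on the plus strand. None of the 5 reached the minimum mean count, so their ranges could not be compared with those of the loci.

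The closest rows that reached it were looked for after these counts had been seen, and AMB3, AMB8 and AMB10 were not the 3 lowest libraries in the 3 named here. Toward higher coordinates, 0.816 Mb from the nearer end of the upstream locus and so outside the window only as measured between lowest coordinates, the ribosomal protein pseudogene LOC100997667 lay between 0.475 and 1.36 CPM, and its reads may come from similar genes. DACH1, a transcription factor of the dachshund family at 1.47 Mb, ranged from 4.52 CPM in AMB7 to 8.24 in AMB5, with 5.94 in AMB8. Toward lower coordinates, 2.68 Mb from the downstream locus, the adhesion protein gene PCDH9 stood at 204, 113 and 144 CPM in AMB3, AMB8 and AMB10, with the other 5 libraries between 175 and 202. The log2 ranges were 1.45 for LOC100997667 and 0.86 each for DACH1 and PCDH9. Over chromosome 15 without the loci, 54 of 369 genes (14.6%) spanned at least 2 in log2 CPM. AMB3, AMB8 and AMB10 were lowest in 27 (7.32%), and both shares were below those over all genes. They were highest in 36 (9.76%), near the 9.42% of all genes. Of the 369, LOC116270587 had a log2 range of 7.03, larger than that of either locus.

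Other BTB-kelch genes had smaller ranges. Of 50 with a row, 46 reached the minimum mean count, and 3 of these (6.52%) had a log2 range of at least 2, against 16.0% of all genes. They were KLHL4, KLHL38 and KLHL41, with ranges of 2.93, 2.71 and 2.10. The median range of the family was 0.82. KLHL4, a close relative of KLHL1 in sequence, was at 48.1 CPM in AMB7, 44.8 in AMB5, 38.0 in AMB4, 36.6 in AMB9 and 30.6 in AMB6, whereas AMB8 had 10.7, AMB10 had 9.9 and AMB3 had 6.30. Its low libraries were those of the KLHL1 loci, but its lowest was AMB3 and not AMB8. KLHL5, another close relative, was instead highest in these libraries, with 106, 90.2 and 105 CPM in AMB3, AMB8 and AMB10, while the other 5 lay at 58.2 to 82.3.

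AMB3, AMB8 and AMB10 were the 3 lowest libraries in 5 of the 46 family genes (10.9%) and the 3 highest in 6 (13.0%), near the 9.71% and 9.42% of all genes. Among the most abundant members, ENC1, an actin-binding protein of neurons, ranged from 940 CPM in AMB6 to 2017 in AMB8. IVNS1ABP, which binds an influenza protein and actin, had 127, 107 and 108 CPM in AMB3, AMB8 and AMB10, while the other 5 libraries had 198 to 307. KLHL2, an actin-binding member, went the other way, its 213, 344 and 357 CPM in AMB3, AMB8 and AMB10 exceeding the 142 to 194 of the other 5. KBTBD11 and KLHL42 had log2 ranges of 0.41 and 0.53, and KLHL23 one of 0.99. KLHL38 and KLHL41 were low throughout, the former with 2 counts in AMB8.

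**Figure D4:**
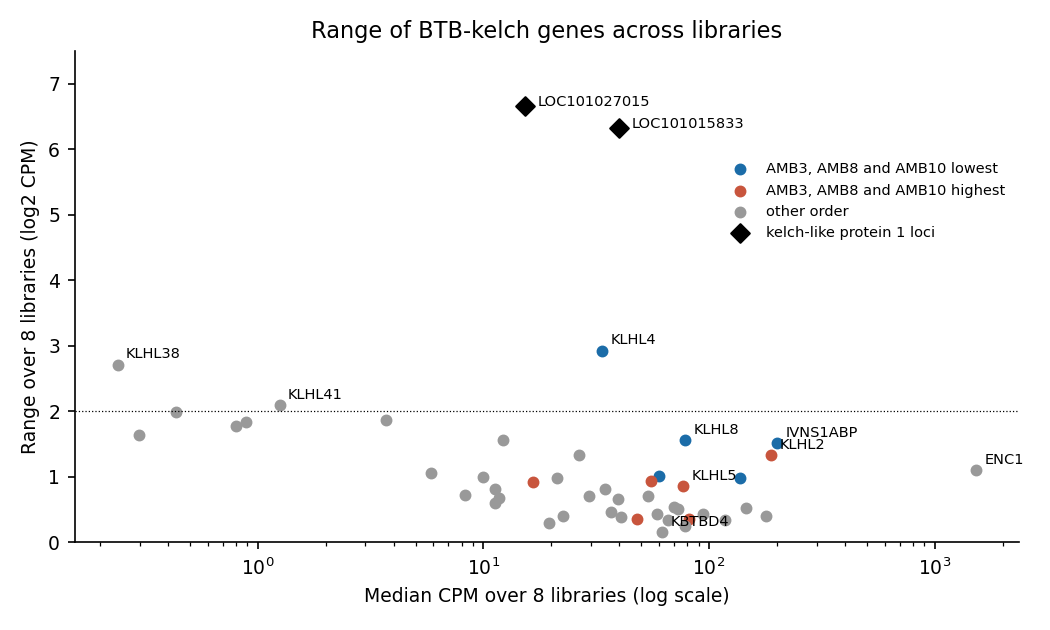
Range over the 8 libraries in log2 CPM against the median CPM (log axis) for 46 other BTB-kelch genes and the 2 loci; colours mark genes in which AMB3, AMB8 and AMB10 were the 3 lowest or the 3 highest libraries, and the dotted line marks a range of 2. The loci stand at 6.32 and 6.65, and KLHL4 comes next at 2.93.

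Genes of the cullin 3 ligase varied little by comparison. None of the 7 listed spanned 1 or more in log2 CPM, where 43.1% of all genes did. CUL3, the scaffold, lay between 133 and 158 CPM and RBX1, its RING subunit, between 44.0 and 62.2 CPM. Of the calcium channel genes listed, 3 had a row, and 2 of these spanned at least 1 in log2 CPM, against 43.1% of all genes. In the same 2 (66.7%), AMB3, AMB8 and AMB10 were the 3 lowest libraries, against 9.71% of all genes. CACNA1A, the pore subunit of P/Q-type channels, had 71.7, 108 and 106 CPM in AMB3, AMB8 and AMB10, below the 136 to 183 of the other 5 libraries. CACNA1G, a T-type pore subunit, had 83.8, 83.1 and 82.9 CPM in them, below the 106 to 190 of the other 5. CACNA1I, another T-type subunit, had no such order, with 83.0 to 130 CPM. These genes differed by at most 1.35 in log2 CPM, compared with 6.43 for the summed loci.

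The genes whose levels ran most like the summed loci were sought among 13218 genes with a symbol other than a LOC number and a mean count of at least 50, by Pearson's r of log2 CPM over the 8 libraries. The 5 highest were LRRC38 (r = 0.998), OTOF (0.996), RTL6 (0.995), NTM (0.994) and CXXC4 (0.994), on 5 different chromosomes, and none was chromosome 15. In all, 210 genes had an r of at least 0.95, so these 5 lead a long list and the values of r hardly rank them. The points share libraries and depth, and AMB3, AMB8 and AMB10 were the 3 lowest libraries in each of the 5. Spearman's rho lay between 0.952 and 1 for them.

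LRRC38, an auxiliary subunit of the large-conductance potassium channel, ran from 0.0299 CPM in AMB8 (2 counts) and 0.140 in AMB10 to 3.11 in AMB7, and its 8 libraries stood in the same order as the sum. OTOF, a calcium sensor of vesicle release in hair cells, ran from 0.164 CPM in AMB8 to 7.79 in AMB7. These had log2 ranges of 5.59 and 5.29. CXXC4, an inhibitor of Wnt signalling, ran from 15.96 CPM in AMB8 to 94.0 in AMB7. NTM, the adhesion protein neurotrimin, spanned 84.9 to 246 CPM, and RTL6, a retrotransposon-derived gene, only 161 to 226 CPM. A high r thus came with ranges from 0.49 to 5.59. The separate searches for the loci added MPPED1 for the downstream and HS3ST2 and PIEZO2 for the upstream locus. MPPED1, a gene of the metallophosphoesterase family, spanned 224 to 576 CPM, and PIEZO2, a mechanically gated channel, 4.52 to 20.8 CPM. HS3ST2, a heparan sulfate sulfotransferase, had 9.72, 3.18 and 7.13 CPM in AMB3, AMB8 and AMB10, while the other 5 libraries had 42.3 to 60.7.

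Levels most opposed to the sum were those of TSPAN18 (r = -0.990), NHSL1 (-0.988) and KCTD6 (-0.986). TSPAN18, a tetraspanin, ran from 276 CPM in AMB8 through 189 in AMB10 and 101 in AMB3 to 5.37 in AMB7, and its 8 libraries had the reverse order of the sum. KCTD6, a BTB protein that also binds cullin 3, had 34.3, 54.1 and 45.1 CPM in AMB3, AMB8 and AMB10, above the 18.2 to 19.7 of the other 5. For the single loci DPF3 and SRSF9 were also among the 3 of lowest r, with log2 ranges of 1.96 and 0.35.

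**Figure D5:**
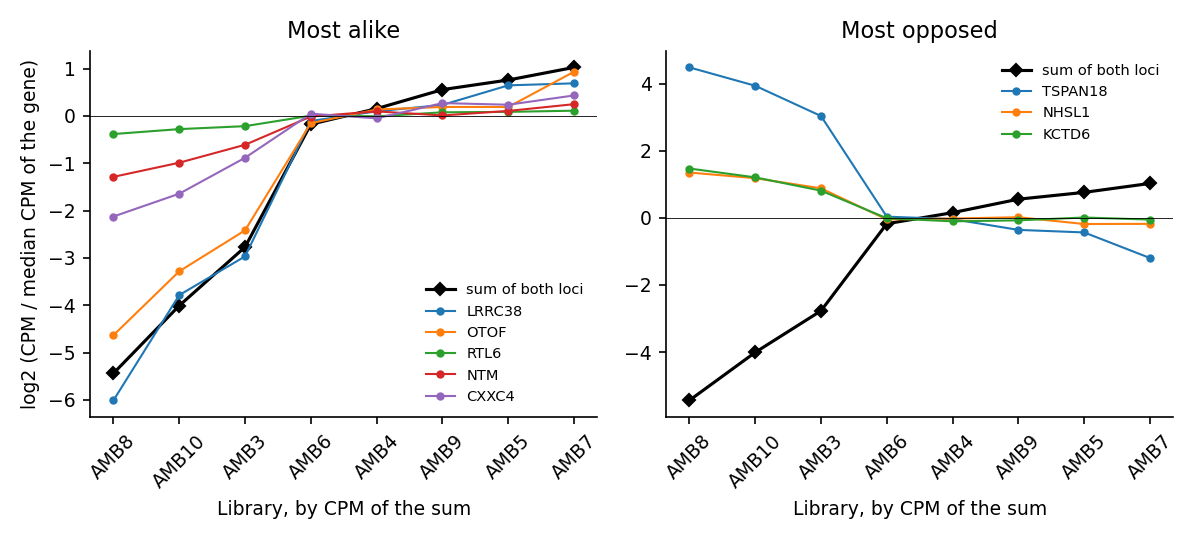
Log2 of CPM over the gene's own median CPM, with libraries ordered by the level of the summed loci (black); the left panel shows the 5 genes with the highest r and the right panel the 3 with the lowest. LRRC38 and OTOF follow the sum over most of its range, RTL6 and NTM over a small part of it, and TSPAN18 runs in the reverse order.

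Some marker genes had the same 3 libraries at one end of their order, and in RNA from whole tissue fewer cells of a type cannot be told apart from less RNA per cell. The 4 neuron genes SNAP25, SYT1, RBFOX3 and STMN2 summed to between 4160 and 5185 CPM, and AMB3, AMB8 and AMB10 lay at 4868, 4291 and 4181. Divided by that sum, the level of the loci had a log2 range of 6.39, but a divisor that varied so little could hardly change it. Of the 4, RBFOX3 was lowest in the same 3 libraries, whereas SNAP25 was highest there, with 1240.1, 1228 and 1292 CPM in AMB3, AMB8 and AMB10 and 852 to 1036 in the other 5. Of the 4 hippocampal genes, 3 were highest in these libraries, against 9.42% of all genes: PROX1, of dentate granule cells, FIBCD1 and NEUROD1. The hippocampal genes summed to 167, 595 and 530 CPM in AMB3, AMB8 and AMB10, and to 47.9 to 124 in the other 5 libraries. ZBTB20, the fourth, was highest in AMB10 and AMB8 as well, but AMB4 slightly exceeded AMB3.

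Genes of neocortical excitatory neurons were listed after these values had been seen. Of the 6 analysed here, 4 were lowest in AMB3, AMB8 and AMB10, against 9.71% of all genes, and nothing is read from a list written in that way. CUX2, an upper-layer transcription factor, had 57.2, 12.05 and 16.2 CPM in AMB3, AMB8 and AMB10, while the other 5 libraries had 139 to 277. RORB, a nuclear receptor of middle-layer neurons, had 21.2, 17.4 and 21.8 CPM in them, while the other 5 had 98.2 to 268. TBR1 had the same 3 low libraries, as did FEZF2 over a log2 range of only 0.41, whereas BCL11B was highest there. SLC17A7, the vesicular glutamate transporter, had no such order and ranged from 805 to 1363 CPM. The 6 genes summed to between 1231 and 1430 CPM in AMB3, AMB8 and AMB10 and to 1305 to 1754 in the other 5. These sums overlapped, but SLC17A7 made up most of each, with 994, 1247 and 1182 CPM in AMB3, AMB8 and AMB10. The overlap therefore says little of the less abundant genes of the list. The part of tissue makeup in the range of the loci was not tested.

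Of the astrocyte genes, AQP4 and SLC1A2 were highest in these libraries and GFAP was not. The astrocyte sums were 3333, 3411 and 4744 CPM in AMB3, AMB8 and AMB10 and 2067 to 3135 elsewhere. None of the genes listed for oligodendrocytes, microglia, endothelium, meninges, choroid plexus or thalamus had AMB3, AMB8 and AMB10 as its 3 lowest or 3 highest libraries. TTR, which defines choroid plexus, reached 2.47 CPM at most, and AMB5 held no count of it. PCP2, the Purkinje cell marker, did not reach the minimum mean count. It had 0.0492 and 0.0419 CPM in AMB3 and AMB10 and no count in AMB8, and 0.0625 to 0.138 CPM in the other 5 libraries. AMB3, AMB8 and AMB10 were thus its lowest, but its mean count was only 4 and nothing is read from this order. The other Purkinje cell genes, CALB1 and CA8, had neither order.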

How the data were processed

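The authors deposited a table of 37053 RefSeq genes with 2 values per library. The raw columns hold estimated counts, per the file headers, and the normalized columns hold log2 values that the authors deposited already scaled and centred. The submitters' processing notes name DESeq and no version. Aligner, counter, use of strand and build: not given in the sources used here. All 37053 gene IDs matched the RefSeq table of Panubis1.0. Estimated counts were rounded to whole numbers. edgeR 4.0.16 gave scaling factors for library size by TMM (0.955 to 1.02) over 16874 genes that passed filterByExpr with a minimum count of 10. Levels are CPM, and ranges use log2 CPM with a prior count of 2. Background shares were taken over 18994 genes with a mean count of at least 10. The range and likeness steps were checked on simulated counts with known folds. These had Poisson error only, so the check covers the calculation and not the spread between real libraries.

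All 8 libraries are unassigned, so no test between groups was made, and intervals cover counting error only. Named are the loci, expressed neighbours, the 5 genes of highest and 3 of lowest r for each locus and the sum, the 6 most abundant and 3 most variable BTB-kelch genes, and up to 4 genes of each other list; KLHL5 and further list members were chosen after their values were seen. The loci and gene lists were chosen with earlier results of these data known. One gene of the neocortical list is not reported here and was left out of its counts and sums after they were seen. No sequence is shown.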

Additional observations from a re-analysis of the deposited data

Results flagged for a closer look

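The kelch-like protein 1 loci, their sum and their share had no single highest or lowest library that stood apart by the gap to its nearest value. A gap inside the order, such as that of the sum between AMB3 and AMB6, is not examined by this rule. Among 72 sets of 8 library values examined in this way, including those of all named genes, 4 had such a library, and chance flags about 1 in 20 sets. In KLHL38, a BTB-kelch gene, AMB8 was far below the other libraries, with 0.0299 CPM from 2 counts, and the gap took 0.639 of the whole log2 range. In NEDD8, the ubiquitin-like modifier of cullins, AMB5 was far above with 115 CPM, and the gap took 0.612 of the range. In AQP1, a water channel listed for choroid plexus, AMB3 was far below with 0.492 CPM, and the gap took 0.569. In FEZF2, a transcription factor of deep-layer neurons, AMB8 was below the other libraries with 46.0 CPM, and the gap took 0.575.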

How the results depend on the processing

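The log2 range was 6.31 to 6.38 for LOC101015833, 6.64 to 6.93 for LOC101027015 and 6.39 to 6.46 for the sum under median-of-ratios size factors (DESeq2 1.42.0), total counts, a prior count of 0.5, fractional counts, the deposited normalized values (not for the sum, since each gene is centred on its own) and division by 4 neuron genes (sum only, added after the data were seen). Leaving out each library in turn gave 5.09 to 6.32 for LOC101015833, 4.79 to 6.65 for LOC101027015 and 5.02 to 6.43 for the sum, each lowest without AMB8. The median share of LOC101015833 then lay between 74.9% and 75.6%. The 5 neighbouring rows held too few counts for any setting to bring a range of at least 2, so their count of 0 says nothing of stability; a window of 2 Mb added LOC100997667 and DACH1, which stayed under 2. The 3 BTB-kelch genes past that range became 6 of the 50 with a row when no filter was used, which adds genes of few counts. They were 2 under filterByExpr, 4 under median-of-ratios size factors and 1 to 3 when a library was left out, with 1 left without AMB8. Shares over all genes are not given for these settings. At a range of at least 1, a threshold added after the data were seen, 16 of 46 passed, a smaller share than the 43.1% of all genes. By Spearman's rho, 1 of the 5 genes named for the sum was among the first 5. There, 6 genes tied with the same rank order as the sum, so which 5 came first was arbitrary. No paired analysis was possible because no label puts a library in a group. The lowest count was 16, for LOC101027015 in AMB8, where its level was lowest; counting error is widest there.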
